A study of Rattus norvegicus with 2 samples.

Results

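Histone-modifying enzymes, Polycomb proteins and DNA methyltransferases were followed in the polyadenylated RNA of heart ventricle cells cultured from newborn rats. The members were chosen by gene symbol, from families of lysine and arginine methyltransferases, lysine demethylases, acetyltransferases, deacetylases, Polycomb subunits, HP1 proteins and DNA-modifying enzymes, and 86 of the 16846 symbols in the table matched. One of them, Kat3, goes by Kyat3 in the RefSeq gene table and encodes a kynurenine aminotransferase, not a histone acetyltransferase. Without it, 85 genes of these families remain, not all of them acting on chromatin. Kat3 stays in the counts below unless stated. Cells from ventricles of rats at postnatal day 0 were left on uncoated plastic for 2 h to remove attaching cells, and the rest were cultured as cardiomyocytes with a stated purity above 90%. The anti-miR culture was transduced for 7 days with AAV2/9 (an adeno-associated virus) with shRNAs that inhibit the microRNAs Let-7a/c and miR-99/100. For the control culture, 1 label names an empty AAV and another a mock transduction, so the virus it received is uncertain. Strain, promoter of the hairpins and number of animals are not given in the sources used here. There was 1 library per group, so no difference has a replicate check, no p-value between groups is given and all values describe these libraries.

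Chromatin enzymes of this kind write, remove or read small chemical marks on histone tails and on DNA. Polycomb repressive complex 2 (PRC2) methylates histone H3 at lysine 27 through Ezh1 or Ezh2, and Polycomb repressive complex 1 (PRC1) ubiquitinates histone H2A through Ring1 or Rnf2. In the heart, Ezh2 restrains genes of other lineages during development, class IIa deacetylases such as Hdac4, Hdac5 and Hdac9 restrain MEF2-driven growth, and Smyd1 is a muscle-specific methyltransferase needed for sarcomere assembly.

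MicroRNAs of the families named as inhibited are shown because those families define the treated culture. Which miR-99 was targeted is not named in the labels, and miR-99a is not shown. Mature rat sequences are from RefSeq (GRCr8), 5′ to 3′, with the seed (bases 2 to 8) in capitals.
rno-let-7a-5p: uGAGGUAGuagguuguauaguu
rno-let-7c-5p: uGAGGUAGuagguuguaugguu
rno-miR-99b-5p: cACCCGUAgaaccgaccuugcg
rno-miR-100-5p: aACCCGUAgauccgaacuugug
The let-7 sequences share the seed GAGGUAG and the miR-99/100 sequences the seed ACCCGUA. Seed matches in the members' transcripts were not analysed here.

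A gene's level is stated in RPM, its deposited signal per 1000000 units of its column's sum, and as RPM per kilobase of the transcript where genes are compared with each other. Wherever values stand in pairs, the control comes first and the anti-miR library second. Depth was 16031780 and 14815847 reads, and a count of 0 allows up to 3 reads, 0.187 and 0.202 RPM. Ratios are anti-miR over control. The log2 ratio adds 0.1 RPM to each level, which understates differences of scarce genes. Brackets after a ratio hold its exact Clopper-Pearson 95% interval, an interval for counting error alone, as reads lacking molecular identifiers need not be independent molecules. A gene was called higher or lower at a 1.5-fold difference on the log2 scale, among genes whose mean reached 1 RPM, the floor used throughout.

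The markers of the labelled cell type were uneven and, summed, far below those of fibroblasts and macrophages. Of 10 cardiomyocyte markers 6 reached 1 RPM, and all 10 together summed to 241 and 278 RPM, most of it from Tnnt2 (2363 and 2388 reads) and Actc1 (1234 and 1315 reads), which encode cardiac troponin T and cardiac actin. Myh6, Ryr2 and Tnni3, which encode alpha myosin heavy chain, the ryanodine receptor and cardiac troponin I, were at 0 reads in the control, against 23, 20 and 5 after anti-miR, while Myl2, a ventricular myosin light chain, had 30 and 5 reads and Myl7 was at 0 in both. The 8 fibroblast markers summed to 102226 and 103684 RPM, the 8 macrophage markers to 6305 and 7115, the 4 measured smooth muscle markers to 977 and 986, and the 5 measured endothelial markers to 16.3 and 19.4. These sums hide differences of opposite sign. Of the endothelial markers, Pecam1 had 0 and 50 reads, Tek 56 and 114, Tie1 158 and 120, and Vwf 47 and 3. Of the macrophage markers, Lyz2 had a ratio of 1.34 and C1qa of 0.673. Muscle-specific Smyd1 had 0 and 3 reads. The levels below are thus those of a mixed culture, in which fewer cells of a type and less RNA per cell cannot be told apart.

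As a group, the members differed little between the libraries. Of 86 members, 82 reached a mean of 1 RPM, Smyd1 stayed below it, and Dnmt3l, Hdac11 and Prmt8 had 0 reads in both libraries. Among the 82, 6 passed 1.5-fold upward after anti-miR, beside 10.8% of all 10365 genes above the floor, and 8 passed it downward, beside 8.56% of all genes. At 2-fold these counts were 5 and 3 members, beside 4.85% and 3.56% of all genes. The other 68 lay within 1.5-fold. The members' shares, 7.32% higher and 9.76% lower, were near those of all genes. The median log2 ratio was 0.07 over the members and 0.03 over all genes, and 57.3% of the members and 53.3% of all genes lay above 0. Summed over all members, the level was 3498 and 3637 RPM.

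Nearly all members past 1.5-fold were scarce transcripts. Of 8 members with a mean of 1 to 5 RPM, 4 were higher and 3 lower, against 33.9% and 29.2% of all genes in that band. The floor is set on the mean, so it favours large ratios among scarce genes, in the members as in all genes. Dnmt3b, Setd6, Cbx8, Cbx2 and Kdm4d, which also passed 2-fold, were below 1 RPM in 1 library and reached the floor only through the other. Of 22 members at 5 to 20 RPM, 2 were higher and 4 lower, against 17.5% and 12.6% of all genes. Of 40 members at 20 to 100 RPM, 0 were higher and 1, Kdm1b, was lower, against 3.92% and 2.79% of all genes, and all 12 members of 100 RPM or more lay within 1.5-fold, as did all but 0.167% (higher) and 0.781% (lower) of genes there. The counting interval excluded 1 for all 14 members past 1.5-fold, where 10.4% and 8.06% of all genes met both criteria. It lay above 1 for 33 members and below 1 for 22, beside 33.6% and 28.1% of all genes above the floor. An exact binomial test on the reads, which compares these libraries and not the conditions, called 32 members higher and 20 lower, beside 31.4% and 26.1% of all genes. Thus an interval that excludes 1 does not set a gene apart in these libraries.

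**Figure D1:**
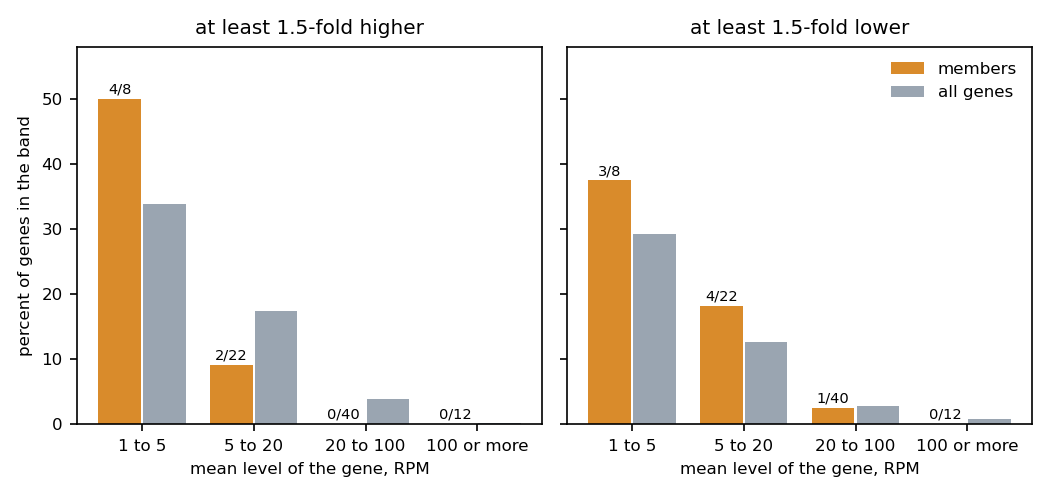
Percent of genes past 1.5-fold upward (left) or downward (right) after anti-miR, by mean level in RPM, for the members (orange, with their counts) and all genes of the band (grey). In both sets the percentage falls with level, and 13 of the 14 members past 1.5-fold lie below 20 RPM.

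**Figure D2:**
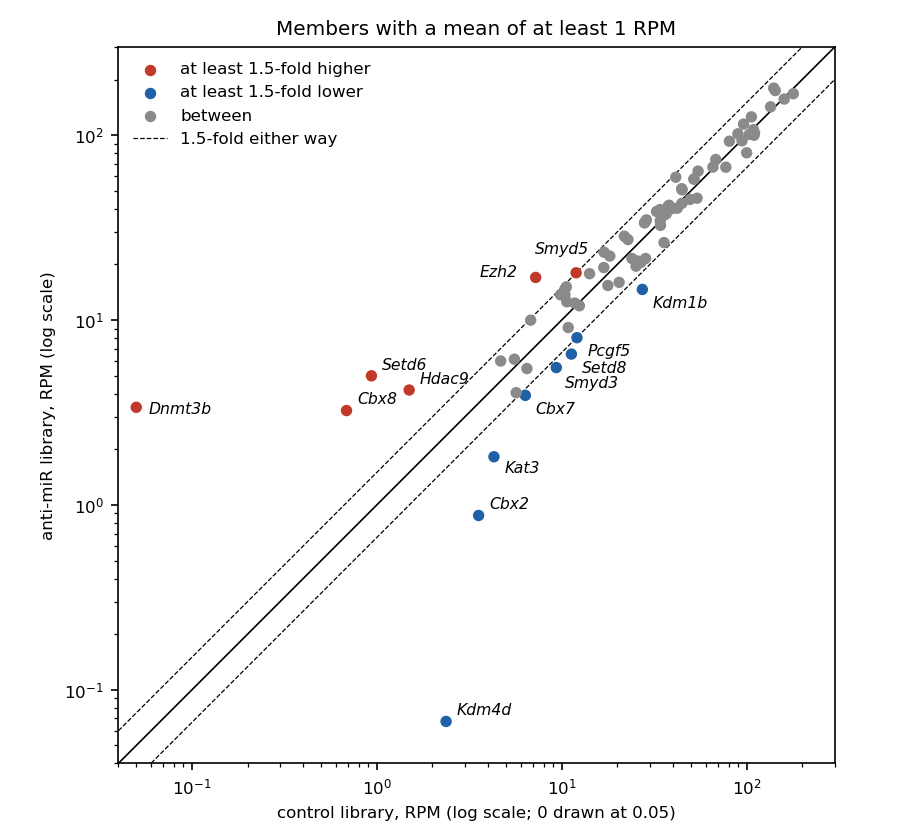
Level of each of the 82 members in the control (x axis) and anti-miR library (y axis), in RPM on log axes, 1 point per gene, with lines at equality and 1.5-fold. The abundant members follow the line of equality, and the named members, at least 1.5-fold higher (red) or lower (blue), are mostly scarce.

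In PRC2, the subunit that differed was Ezh2. Ezh2 (NM_001134979, rn4 chromosome 4, 75709959 to 75773279, minus strand), 1 of the alternative H3K27 methyltransferases and the form typical of dividing cells, had 116 and 252 reads, or 7.24 and 17.0 RPM. It was thus higher after anti-miR by a ratio of 2.35 (1.88 to 2.95), a log2 ratio of 1.22. Its paralog Ezh1, which is typical of resting cells, stood at 42.2 and 40.3 RPM, a ratio of 0.954. Eed, the subunit that binds methylated H3K27 and stimulates the enzyme, stood at 39.6 and 40.1 RPM. Of the reads of the Ezh1 and Ezh2 pair, Ezh2 held 14.6% (95% Clopper-Pearson interval 12.2 to 17.3) and 29.7% (26.6 to 32.9). Per kilobase of transcript, Ezh1 remained above Ezh2 in both, with 10.0 and 9.54 RPM against 2.61 and 6.14. Suz12 was not analysed here.

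Genes of proliferating cells were measured beside Ezh2. Of 17 proliferation genes above the floor, 8 passed 1.5-fold upward and 1, Bub1, downward, beside 10.8% and 8.56% of all genes. By level, the shares of all genes were 33.9% and 29.2% at 1 to 5 RPM, 17.5% and 12.6% at 5 to 20, and 3.92% and 2.79% at 20 to 100. The higher proliferation genes were spread over these bands, and the list summed to 419 and 516 RPM. Cdk1, the mitotic kinase, had 241 and 497 reads, and Mki67, the proliferation marker, 57.6 and 63.2 RPM. Members also linked to the cell cycle differed from Ezh2: Dnmt1, the maintenance DNA methyltransferase, had 100.2 and 80.3 RPM, a ratio of 0.802, and its partner Uhrf1 had a log2 ratio of 0.10. Setd8, which monomethylates H4K20 and is named Kmt5a in RefSeq, had 11.3 and 6.55 RPM and was lower, at 0.580 (0.448 to 0.746). The part of proliferating cells in the Ezh2 difference was not tested.

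In PRC1, the catalytic subunits Ring1 (18.2 and 22.2 RPM) and Rnf2 (719 and 750 reads) lay within 1.5-fold, while the chromodomain subunits that bind H3K27 methylation differed in both directions. Cbx8 (rn4 chromosome Un, 51860024 to 51862511) had 11 and 48 reads, or 0.686 and 3.24 RPM, a ratio of 4.72 (2.42 to 10.1). Its neighbour Cbx2 (chromosome Un, 51843829 to 51852658), on the opposite strand, had 57 and 13 reads, or 3.56 and 0.877 RPM, a ratio of 0.247 (0.124 to 0.456). Of the reads of this pair, Cbx8 held 16.2% (8.36 to 27.1) of 68 and 78.7% (66.3 to 88.1) of 61. The pair joins the highest and the lowest ratio of PRC1, so these shares restate those ratios and are no separate support. Cbx7 was lower too, with 6.36 and 3.91 RPM, a call that ended at a log2 ratio of −0.58 with a pseudocount of 1 RPM. These are minor forms here: Cbx6, the most abundant PRC1 transcript per kilobase, had 35.8 and 32.9 RPM per kilobase, and Cbx2, Cbx7 and Cbx8 at most 2.40.

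The PCGF subunits, which define the variants of PRC1, had their own split. Pcgf1 stood at 6.80 and 9.99 RPM, just short of 1.5-fold, with a log2 ratio of 0.55. Pcgf5 was lower, with 12.1 and 8.03 RPM, a log2 ratio of −0.59 at the edge of the rule, a call that ended at −0.56 with a pseudocount of 0.5 RPM and at −0.54 with 1 RPM. Pcgf2, Pcgf3 and Pcgf6 had log2 ratios of −0.40, −0.35 and −0.25, and Bmi1, the classical PCGF subunit, had 12.5 and 11.9 RPM. Of the polyhomeotic scaffold genes, Phc2 was the most abundant per kilobase with 29.2 and 26.6 RPM per kilobase, and Phc1 and Phc3 had log2 ratios of 0.01 and 0.33. Over the 15 PRC1 genes the median log2 ratio was −0.12, with 1 higher, 3 lower and 6 above 0, beside 10.8%, 8.56% and 53.3% of all genes. The 4 called genes lay below 20 RPM, in the bands where 12.6% to 29.2% of all genes were lower and 17.5% to 33.9% higher.

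The HP1 proteins, readers of methylated H3K9, showed small differences of opposite sign. Cbx5 (HP1 alpha) had 22.8 and 27.3 RPM, and Cbx3 (HP1 gamma) 25.3 and 19.6 RPM, both within 1.5-fold. Among H3K9 methyltransferases, Ehmt2 (G9a) was the most abundant, with 49.1 and 48.2 RPM per kilobase, and its partner Ehmt1 was also within 1.5-fold at a log2 ratio of 0.22. Suv39h1 and Suv39h2, which trimethylate H3K9 in heterochromatin, were scarcer and had log2 ratios of 0.49 and −0.24.

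The remaining SET domain genes were mostly level. Setd2, which trimethylates H3K36, had 134.9 and 142.4 RPM, and Dot1l, the H3K79 methyltransferase, 577 and 549 reads. Suv420h1 and Suv420h2, which extend H4K20 methylation and are named Kmt5b and Kmt5c in RefSeq, had log2 ratios of −0.14 and 0.13. Setd5 and Mll5 (Kmt2e in RefSeq), related SET domain proteins, had ratios of 1.22 (1.15 to 1.29) and 1.28 (1.21 to 1.36). Setd6, which methylates the NF-kB subunit RelA, was far scarcer, with 15 and 74 reads, a ratio of 5.34 (3.04 to 10.01). Setd4 and Setd7 had log2 ratios of −0.31 and −0.16.

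In the Smyd family, Smyd5 was higher at 192 and 267 reads, with a log2 ratio of 0.59 at the edge of the rule, a call that ended under TMM or median-of-ratios scaling and under pseudocounts of 0.5 and 1 RPM. Smyd3 was lower at 9.36 and 5.53 RPM (ratio 0.592, 0.446 to 0.779). Smyd2, the most abundant of the family per kilobase, had 34.1 and 39.6 RPM, and Smyd4 had 5.55 and 6.14 RPM.

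**Figure D3:**
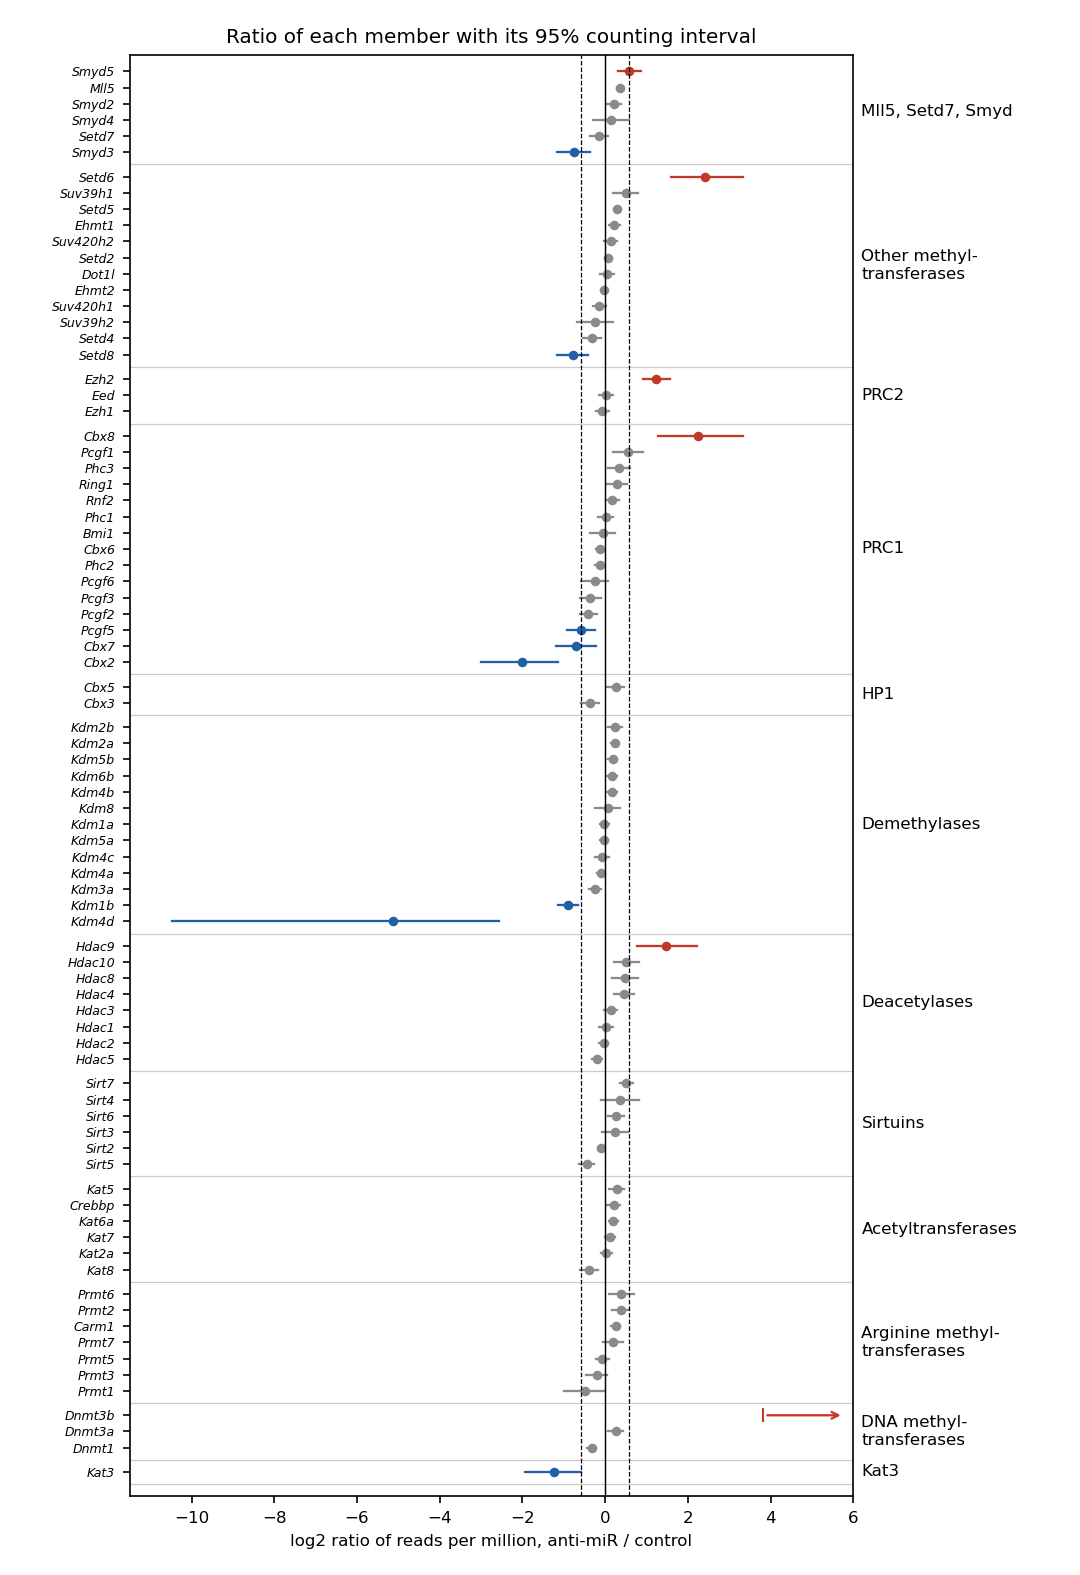
Ratio of RPM, anti-miR over control, for each member of at least 1 RPM on a log2 axis, grouped by role, with 95% counting intervals as lines and dashed lines at 1.5-fold. Dnmt3b, with 0 control reads, is drawn as an arrow from the lower end of its interval; most members lie between the dashed lines in every group except Kat3, which stands alone. No pseudocount is added here, so scarce genes lie farther out than their log2 ratios in the text.

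Of 13 lysine demethylases, 2 were lower and 0 higher, beside 8.56% and 10.8% of all genes. Kdm1b (rn4 chromosome 17, 23655643 to 23695480), a flavin-dependent H3K4 demethylase, had 438 and 217 reads, or 27.3 and 14.6 RPM. Its ratio of 0.536 (0.453 to 0.632) made it the only member above 20 RPM to pass 1.5-fold. The paralog Kdm1a (LSD1) had 94.5 and 93.2 RPM, and Kdm1b held 22.4% (20.6 to 24.3) and 13.6% (11.9 to 15.4) of the reads of the pair. Kdm4d, a demethylase of H3K9, had 38 reads and 1 read, which gives a ratio of 0.0285 (0.000703 to 0.169). The more abundant Kdm4a, Kdm4b and Kdm4c had log2 ratios of −0.10, 0.15 and −0.07. The H3K36 demethylases Kdm2a and Kdm2b both had a log2 ratio of 0.24, Kdm5a and Kdm5b, which act on H3K4, −0.02 and 0.18, and Kdm6b, which removes H3K27 methylation, 0.16. Kdm3a, a hypoxia-induced H3K9 demethylase, had 54.0 and 45.6 RPM. Kdm8 had 189 and 183 reads.

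Among the classical deacetylases the major forms were level and the higher ones scarce. Hdac2, the most abundant per kilobase, had 103.5 and 101.0 RPM, Hdac1 36.8 and 37.6, and Hdac3 38.1 and 41.8. Hdac9 (rn4 chromosome 6, 52696733 to 53283737) was the 1 member past 1.5-fold, with 24 and 62 reads, a ratio of 2.80 (1.72 to 4.68), out of 1535 and 1402 reads of Hdac4, Hdac5 and Hdac9 together. Within this class IIa group Hdac4 had 17.0 and 23.3 RPM, a log2 ratio of 0.45, and Hdac5, the main form, 77.3 and 67.2 RPM, a log2 ratio of −0.20. Hdac8 and Hdac10 had log2 ratios of 0.47 and 0.51. Over the 8 genes the median was 0.29, with 6 above 0, beside 0.03 and 53.3% of all genes. Of these 8, 1 was higher and 0 lower, beside 10.8% and 8.56% of all genes. Hdac9 is expressed in muscle among other tissues, and cardiomyocyte markers summed to 241 and 278 RPM, as given above; their part in the difference was not tested.

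No sirtuin of the 6 above the floor passed 1.5-fold. Of all genes, 19.4% passed it either way, and 6.71% of those at 20 to 100 RPM. Sirt2, a mainly cytoplasmic deacetylase, was the most abundant member per kilobase, with 88.4 and 82.7 RPM per kilobase. Sirt7, a nucleolar H3K18 deacetylase, came closest, at 41.4 and 59.3 RPM (log2 ratio 0.52). Mitochondrial Sirt5, a desuccinylase, was on the other side with 35.8 and 26.3 RPM (ratio 0.733, 0.643 to 0.836). Sirt3, Sirt4 and Sirt6 had log2 ratios of 0.23, 0.35 and 0.26.

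Acetyltransferases and arginine methyltransferases also stayed within 1.5-fold, 6 and 7 genes. Past that fold either way lay 19.4% of all genes, and 6.71% of those at 20 to 100 RPM. Kat2a (GCN5) had 65.8 and 67.2 RPM, Kat7 (HBO1) 68.2 and 73.9, Kat6a 80.8 and 92.8, and Crebbp (CBP) 44.6 and 51.4. Kat5 (TIP60) was highest of this list at 0.28, and Kat8 (MOF), the H4K16 acetyltransferase, lowest at −0.38. Of the arginine methyltransferases Carm1, a coactivator enzyme, was the most abundant with 30.4 and 36.2 RPM per kilobase, and Prmt5, the main symmetric methyltransferase, had 44.7 and 42.8 RPM. Prmt6 was highest at 0.39 and Prmt1 lowest at −0.48, and Prmt1 had only 91 and 60 reads. Prmt2, Prmt3 and Prmt7 had log2 ratios of 0.38, −0.21 and 0.19. Kat3, the aminotransferase gene that only its symbol places here, was lower, with 69 and 27 reads.

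Of the DNA methyltransferases, Dnmt3b (rn4 chromosome 3, 144030737 to 144069265), a de novo enzyme of early development, had 0 and 50 reads. With the control at the 3 reads that a count of 0 allows, and the 50 reads taken as they stand, it was at least 18.0-fold higher; with counting error in both libraries the interval of the ratio began at 14.1. Of all genes above the floor, 59 (0.569%) were at 0 in the control library and 20 (0.193%) in the other. The other de novo enzyme, Dnmt3a, had 28.1 and 33.5 RPM, and Dnmt3b held 0% (up to 0.816) and 9.14% (6.86 to 11.9) of the reads of this pair. The Tet genes were not analysed here.

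**Figure D4:**
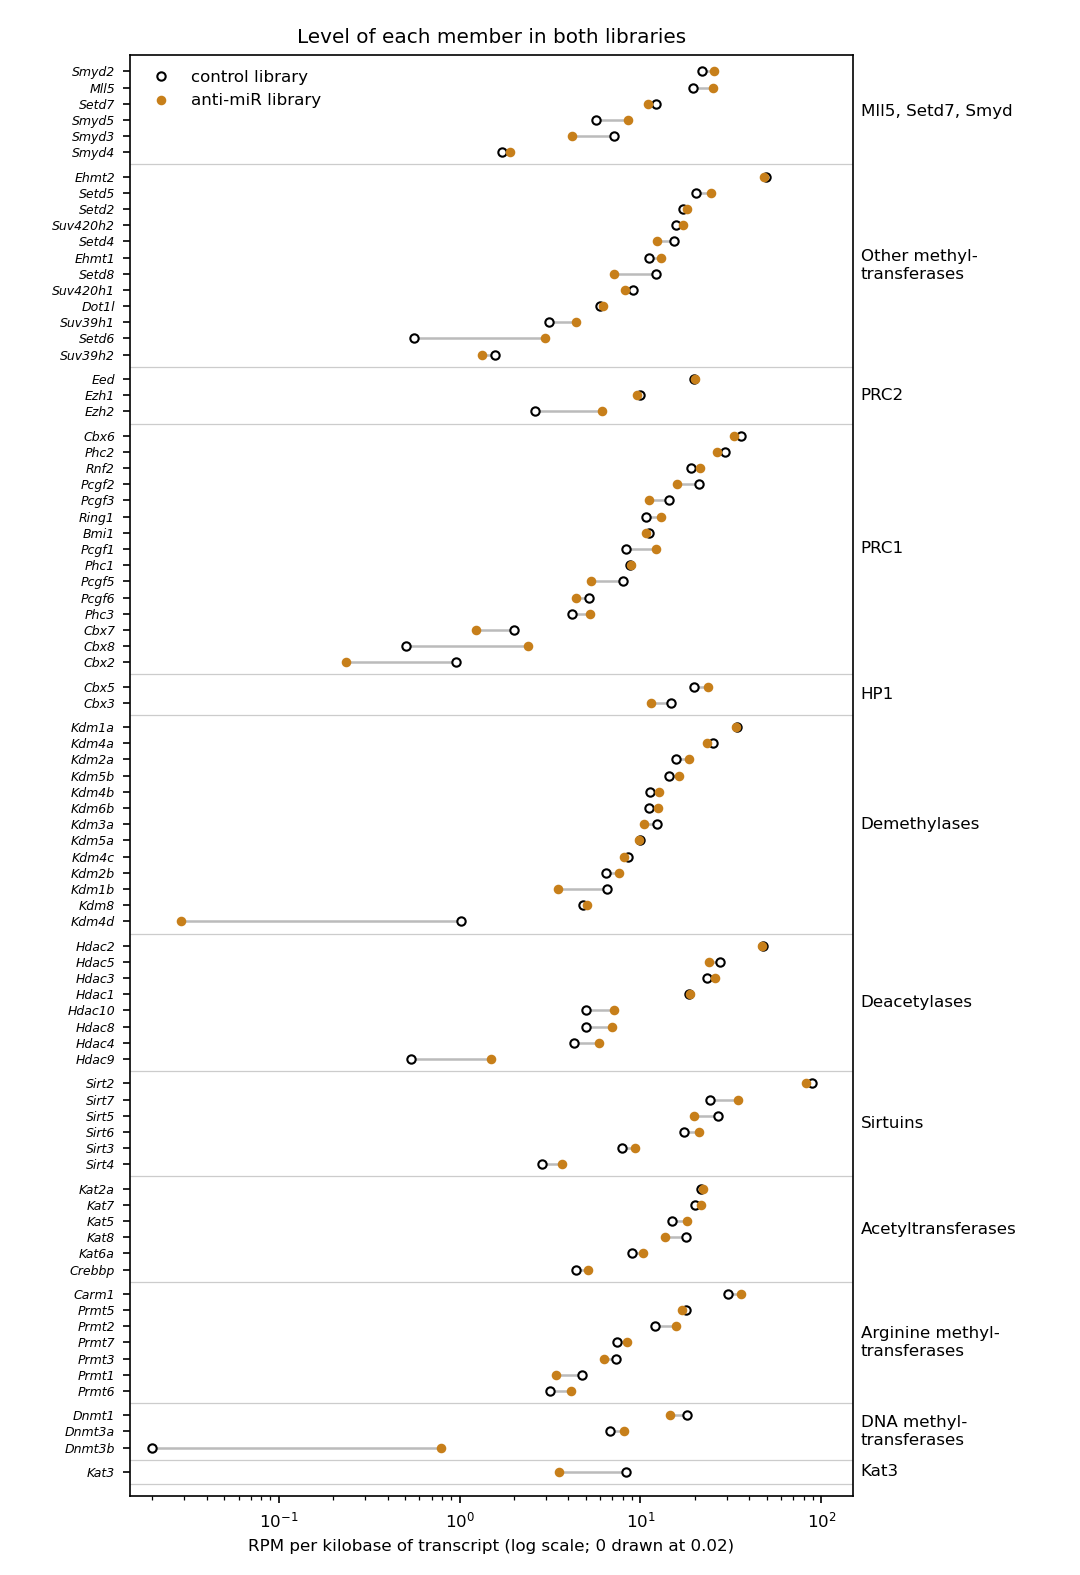
Level of each member of at least 1 RPM in RPM per kilobase of transcript (log axis), control open and anti-miR filled, grouped by role and ordered by level. Sirt2 is highest, at 88.4 and 82.7, and the long connecting lines belong to the least abundant genes, such as Kdm4d, Dnmt3b, Setd6, Cbx8 and Cbx2.

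Partners of these enzymes that the symbol rule leaves out were mostly within 1.5-fold. Of 57 such genes above the floor, 4 passed 1.5-fold upward and 0 downward, beside 10.8% and 8.56% of all genes, and their median log2 ratio was 0.05. The 4 were Dpy30 (17.9 and 32.4 RPM) and Wdr5 (41.3 and 64.4 RPM), core subunits of the H3K4 methyltransferase complexes, Phf8 (26.1 and 40.8 RPM), a demethylase of H3K9 and H4K20, and Gatad2b (8.73 and 14.3 RPM), of the NuRD complex. Aebp2, which joins PRC2, had a log2 ratio of 0.57, and Rbbp5 and Ash2l, which share complexes with Dpy30 and Wdr5, had −0.18 and −0.10. Uhrf2 was lowest at −0.48.

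The promoters of the members were compared in windows from 250 bases before to 50 after the annotated start (RefSeq, GRCr8), of which 76 windows of 73 members matched. Their median of 21.5 CpG dinucleotides per 300 bases was well above the 7 of all 33469 windows and close to the 21 of the 8151 windows of genes of at least 1 RPM. The E2F motif, searched as TTTCGCGC or TTTGGCGC on either strand, stood in 4 members' windows (5.26%), those of Ezh2, Dnmt1, Cbx3 and Kdm1a, against 1.62% of expressed genes' windows and 0.792% of all. These 4 genes had log2 ratios of 1.22, −0.32, −0.37 and −0.02. The letters TATAAA, on either strand, stood in 1 window, that of Smyd1, against 6.42% of expressed genes' windows and 14.2% of all. Also searched were GGGCGG, in 72.4% of the members' windows against 63.5% of expressed genes' and 33.1% of all, and CACGTG, in 13.2% against 9.20% and 6.42%. Poor in CpG, with 4 or fewer, were 5 of the 76 windows (6.58%), those of Hdac8, Hdac9, Pcgf2, Phc2 and Smyd1. That share was near the 7.61% of expressed genes' windows and below the 37.97% of all. Given below are the windows of Ezh2 and Dnmt1, which each hold 1 form of the E2F motif and whose ratios have opposite signs, and of CpG-poor Hdac9. They are written 5′ to 3′ on the gene's strand, minus in all 3, with the motif in capitals. In Ezh2 it reads TTTGGCGC, and in Dnmt1 GCGCGAAA, which is TTTCGCGC on the other strand.
Ezh2 (chr4:77687134-77687433, GRCr8): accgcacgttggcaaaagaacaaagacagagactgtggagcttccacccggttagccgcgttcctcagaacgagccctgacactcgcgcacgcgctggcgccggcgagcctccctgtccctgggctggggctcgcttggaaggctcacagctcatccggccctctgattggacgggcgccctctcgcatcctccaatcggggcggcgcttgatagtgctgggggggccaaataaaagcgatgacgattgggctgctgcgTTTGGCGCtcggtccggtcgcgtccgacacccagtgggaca
Dnmt1 (chr8:27762792-27763091, GRCr8): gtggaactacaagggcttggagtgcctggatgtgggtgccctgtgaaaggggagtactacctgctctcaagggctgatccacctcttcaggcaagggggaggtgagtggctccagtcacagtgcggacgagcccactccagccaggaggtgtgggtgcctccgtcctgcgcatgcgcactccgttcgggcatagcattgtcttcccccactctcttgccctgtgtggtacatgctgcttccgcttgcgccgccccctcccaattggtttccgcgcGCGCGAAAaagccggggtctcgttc
Hdac9 (chr6:57052522-57052821, GRCr8): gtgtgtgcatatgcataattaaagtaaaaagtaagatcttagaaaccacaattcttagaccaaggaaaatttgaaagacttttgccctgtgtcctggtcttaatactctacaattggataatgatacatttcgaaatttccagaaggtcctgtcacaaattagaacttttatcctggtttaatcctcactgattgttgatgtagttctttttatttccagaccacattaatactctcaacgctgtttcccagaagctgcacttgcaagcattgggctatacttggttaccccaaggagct
The windows held 30, 17 and 2 CpG dinucleotides. A match of letters is a description and not a site of binding.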

How the data were processed

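Polyadenylated RNA-seq of 2 libraries, control and anti-miR, was analysed from 1 table. Per the labels' protocols, libraries were made with strand-specific TruSeq kits. Per the file headers, the authors ran HOMER on rn4 RNA annotation, counting exon reads on the opposite strand, with no adjustment and genes condensed. Per the submitters' processing notes, CASAVA 1.8.2, HOMER and STAR 2.2.0c were used. The signal the authors deposited is nevertheless scaled: both columns sum to about the same total, and no source used here names the scaling step. Values up to 400 reads were whole multiples (100% within 0.005 deposited units) of 0.962 (control) and 1.04 (anti-miR), so reads were recovered by division.

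Ratios used Python 3.11.15, numpy 2.4.6, pandas 2.3.3 and scipy 1.17.1, with a pseudocount of 0.1 RPM and a floor of a mean of 1 RPM; TMM factors came from edgeR 4.0.16. The members and lists were chosen with earlier results of these data known. An exact binomial test of recovered reads, adjusted by Benjamini-Hochberg at 0.05 and chosen after seeing the data, called 6621 of 11630 genes with a read; it compares libraries, not conditions. Named were members past 1.5-fold, the highest, lowest and most abundant of each role list and the PRC2 subunits; the others named were chosen after their values were seen. Of 86 accessions, 80 matched the RefSeq gene table, 75 under the same symbol. Scripts were tested on simulated data.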

Additional observations from a re-analysis of the deposited data

How the results depend on the processing

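The members' median log2 ratio of 0.07 stayed between 0.05 and 0.10 under pseudocounts of 0.5 and 1 RPM, TMM and median-of-ratios scaling, no floor, floors of 5 and 10 RPM, and without Kat3, the last chosen after seeing the data. Of the 6 higher members, 2 remained with a floor of 5 RPM and 2 with a floor of 10 RPM, Ezh2 and Smyd5, and 5 remained with either scaling, which ended the call of Smyd5, as did both larger pseudocounts. Of the 8 lower members, 5 remained with a floor of 5 RPM, 2 with a floor of 10 RPM and 3 with a fold of 2. A pseudocount of 0.5 RPM left 7, without Pcgf5, and 1 RPM left 6, without Pcgf5 and Cbx7. Higher floors leave fewer genes, 74 and 66. The exact binomial test on reads, also chosen after seeing the data, called 32 members higher and 20 lower, and 31.4% and 26.1% of all genes of at least 1 RPM. Among single members, 80 of 82 stayed within their counting interval under each larger pseudocount, and no called member changed sign. The 2 that moved were those with the most extreme log2 ratios. With pseudocounts of 0.5 and 1 RPM, Dnmt3b went from 5.12 to 2.95 and 2.13, and Kdm4d from −3.88 to −2.34 and −1.66. No paired analysis was possible because each group has 1 library. Depth limits the scarce members: at 16031780 and 14815847 reads, 1 RPM corresponds to few reads, and spread between cultures was not measured.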
